A study of Apis mellifera with 2 samples.

Results

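The most abundant model mRNAs of queen larvae were chosen by their measured level, with the tag counts of both libraries. A model mRNA is a RefSeq record with the prefix XM, which rests on a computed gene model. A record was included when the mean of its tag counts in the 2 libraries reached 1000, whatever the ratio between them, and 1 record that met this, LOC726040, was left out because it belongs to a set of hormone and muscle genes kept apart. This gave 194 mRNAs, of 5924 records in the table and 5676 model mRNAs. The hormone and muscle genes were matched by gene symbol. The 85 of the 194 without a symbol could not be checked against them, and may hold records of these genes. The libraries came from queen larvae of the honey bee Apis mellifera ligustica, breed ZND No.1, reared in plastic queen cells in queen-rearing colonies. Larvae of the miR-184 library were given 5 µl of the microRNA at 100 ng/µl, or 500 ng, from 26 to 32 hours after hatching and again on the following day, and larvae of the water library were given 5 µl of DEPC-treated water at the same times. Each experimental group held 20 to 25 queen cells, the number of larvae behind a library is not stated in the sources used here, and each condition has 1 library, so that no difference has a replicate check. The age of the larvae when RNA was extracted for these libraries is not given in the methods of the study. Larvae that received neither solution are not analysed here.

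A microRNA is a short RNA that guides a protein complex to mRNAs with a matching stretch, mostly in the 3′ untranslated region, where it lowers translation and often the amount of the mRNA. In Drosophila, miR-184 is known for its part in the female germline and the early embryo. A queen larva feeds on royal jelly and grows quickly, and the mRNAs that fill such a larva are generally those for storage proteins of the fat body, for the ribosome, for energy metabolism, for muscle and for cuticle. The records described here carry no role in the sources used here. RefSeq gene names of the assembly Amel_HAv3.1 paired 109 of the 194 with a gene symbol, in every case a LOC number, and 85 are given by their RefSeq identifier.

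Levels come from Digital Gene Expression, a method that sequences short tags next to the Nla III sites of captured cDNA. An mRNA molecule gives a tag whatever its length, so that levels of different mRNAs were compared without dividing by length, although an mRNA without a usable cut site or a unique tag is not seen. Counts are also given as tags per 1000000 tags of the library (TPM), and the libraries held 1353258 tags (miR-184) and 1338190 tags (water). As a check of the label, HEX70b, a larval storage protein of the fat body, had 58273 tags in the miR-184 library and 60187 in the water library, while Mrjp1, a royal jelly protein of the nurse gland, had 2 and 5 tags. In the same order Mrjp2 had 0 and 2 tags, Mrjp8 had 10 and 6, and the eye opsin UVop had 84 and 69. The other planned markers, among them HEX70a, HEX70c, HEX110 and Vg, were paired with no record, so that the fat body rests on HEX70b alone. The study describes these profiles as those of larvae and names no tissue. Fewer cells of a type and less mRNA per cell therefore cannot be told apart.

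The 194 mRNAs, 3.27% of the records, took most of the tags of both libraries. They were chosen by these same counts, so that a large share follows from the rule, and the shares are given as a description. They held 60.9% of the miR-184 tags (95% exact Clopper-Pearson interval 60.8% to 61.0%) and 61.5% of the water tags (61.4% to 61.6%). All intervals here cover counting error only, because they were computed from tag counts without replicate libraries. They take tags as independent. PCR copies of a tag were not told apart by molecular identifiers, so that the intervals may be too narrow. Within the group the tags were concentrated in few records. The 10 highest held 31.0% of the group's tags in the miR-184 library and 30.7% in the water library, and 26 (miR-184) and 25 (water) records were enough to hold 50% of them. At the lower end the tags thinned out over many records, and 92 of the 194 had a mean below 2000 tags. Counts ran from 410 to 51819 with a median of 2107 in the miR-184 library, and from 708 to 57088 with a median of 2052 in the water library. No record was listed at 0 in either library.

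The most abundant model mRNA was XM_001121890.1, with 51819 tags or 38292 TPM in the miR-184 library and 57088 tags or 42661 TPM in the water library. It was first in both, and the ratio of the miR-184 library over the water library was -0.16 on the log2 scale (95% counting interval -0.17 to -0.14). XM_624038.2 followed in both, with 23539 TPM in the miR-184 library and 28663 TPM in the water library (log2 ratio -0.28). LOC408308 held place 3 in both, with 20442 and 17494 TPM (miR-184 and water, log2 ratio 0.22). These 3 kept their order, and below them the order shifted.

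XM_001120668.1 was in place 4 in the miR-184 library with 19155 TPM and in place 7 in the water library with 14273 TPM (log2 ratio 0.42), and LOC725274 had 16378 against 12766 TPM (0.36). XM_397323.3 was closer, with 16857 TPM in the miR-184 library and 15617 TPM in the water library (0.11). LOC551867 and LOC552272 lay lower in the miR-184 library, the first with 14960 against 16628 TPM (-0.15) and the second with 12864 against 15641 TPM (-0.28). The remaining members of the 10 most abundant were nearly level. XM_001119947.1 had 13294 TPM in the miR-184 library and 13547 TPM in the water library, and its counting interval included 0 (log2 ratio -0.03, -0.06 to 0.00). XM_624485.2 had 10784 against 11745 TPM (-0.12). The log2 ratios of these 10 records thus lay between -0.28 and 0.42.

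**Figure D1:**
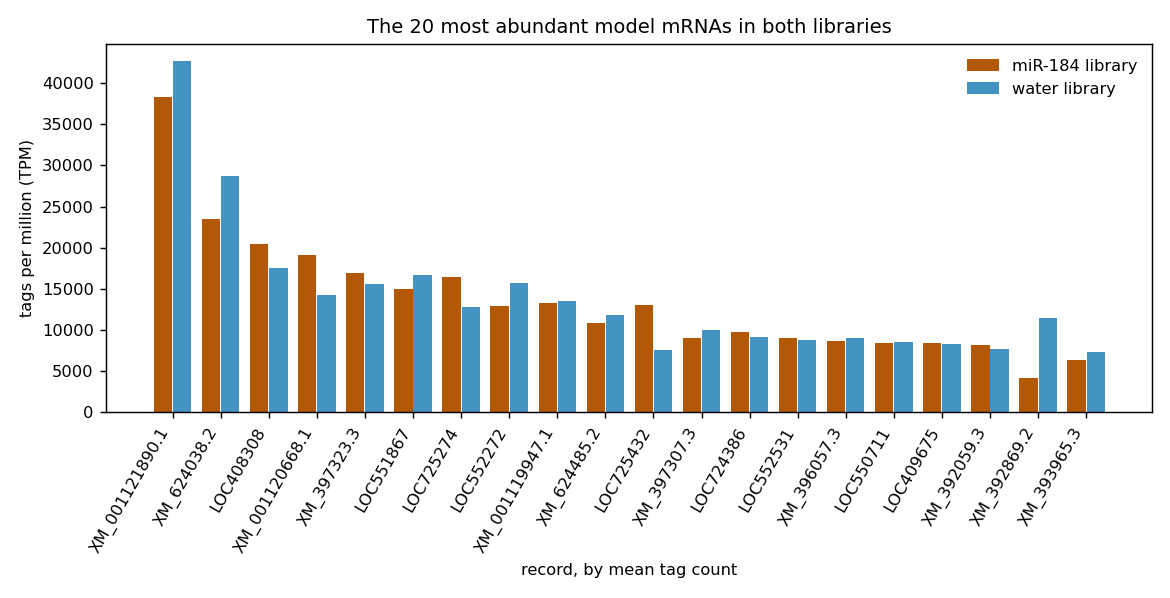
Levels in TPM (vertical axis, from 0) of the 20 most abundant model mRNAs, ordered by their mean tag count, with a bar for the miR-184 library and a bar for the water library beside it; there is 1 library per condition and hence no error bar. Most pairs of bars are close, and the widest gaps are at LOC725432, with 12960 TPM in the miR-184 library and 7483 in the water library, and at XM_392869.2, with 4132 and 11448 TPM.

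The order of the levels was much alike in the libraries. The 20 highest records of each library shared 18, or 90% of either list. LOC409114 and LOC408799 were in the list of the miR-184 library only, in places 19 and 20 against 25 and 28 in the water library. XM_392869.2 and XM_394187.3 were in that of the water library only, in places 34 and 30 in the miR-184 library against 11 and 19 in the water library. These 4 are named because they left the shared list, which was seen first. Of the 19 pairs of neighbours within each list, 15 in the miR-184 library and 13 in the water library differed by more than counting error (exact binomial test of the 2 counts, two-sided, p under 0.05), so that the order of the other 4 and 6 pairs is not fixed by these counts. Across the 194 records the log2 levels of the libraries had a Pearson correlation of 0.89 and the levels a Spearman correlation of 0.82. The correlations are over mRNAs of the same pair of libraries, and are given as a description.

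As a group the abundant mRNAs were centred near no difference, which the scaling sets in part. Ratios are scaled by the library totals, and the group itself holds 60.9% (miR-184) and 61.5% (water) of these. The median log2 ratio of the 194 was 0.03, with quartiles of -0.20 and 0.30. Over the 3818 mRNAs that averaged 10 tags or more the median was 0.01, with quartiles of -0.43 and 0.37. Of the 194, 108 (55.7%) had a ratio above 1 and 86 a ratio below 1. The ratio was also above 1 for 50.9% of the 3818, and for 53.8% of the 2022 mRNAs averaging 50 tags or more. For 84 records (43.3%) the log2 ratio lay within 0.2 of 0. LOC550711 and LOC409675, picked out after their values were seen, are examples. LOC550711 had exactly 11321 tags in both libraries, and LOC409675 had 11322 tags in the miR-184 library and 11073 in the water library. At this depth counting error is small, with a median standard error of 0.04 and at most 0.08 on the log2 scale. For 159 of the 194 records the counting interval therefore excluded 0, with 87 higher and 72 lower in the miR-184 library. This says only that these 2 libraries differed by more than the sampling of tags, taken as independent. The same count was not made over all mRNAs, so that it is not read as a result about the group. The robust SD of the log2 ratio over the records was 0.40, several times the counting error, and how much of it is the treatment and how much the larvae or the preparation cannot be told apart with 1 library each.

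**Figure D2:**
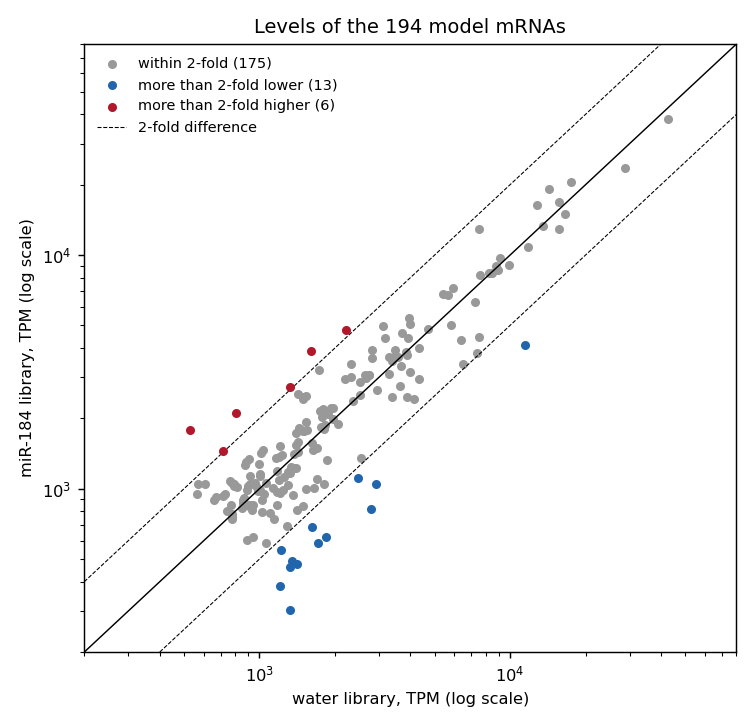
TPM of each of the 194 mRNAs in the miR-184 library (vertical axis) and in the water library (horizontal axis), both on log scales; the solid line marks equal levels and the dashed lines a 2-fold difference. The points follow the line of equal levels, with 13 below the lower dashed line and 6 above the upper one.

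At a ratio above 2 together with p below 0.01 in the exact count test of Audic and Claverie, 19 of the 194 mRNAs (9.79%) differed, 13 lower and 6 higher in the miR-184 library. The same call was made for 9.01% of all 5924 mRNAs, for 9.84% of the 2022 mRNAs averaging 50 tags or more, and for 9.85% of the 1828 of these that lie outside the group. By direction, 6.70% of the group was lower, beside 6.70% of all mRNAs and 7.02% of those averaging 50 tags or more. The share that was higher was 3.09% in the group, beside 2.31% of all mRNAs and 2.82% of those averaging 50 tags or more. The share of abundant mRNAs past the thresholds was thus near the background, and the 19 are described one by one below without being read as a property of abundant mRNAs. At a ratio over 1.5 without a test, 29 were lower and 16 higher, together 23.2% of the group, beside 26.7% of the mRNAs averaging 50 tags or more and 48.3% of all mRNAs. Lower by this measure were 14.9% of the group, 14.5% of the mRNAs averaging 50 tags or more and 27.1% of all mRNAs, and higher were 8.25%, 12.1% and 21.3% of the same 3 sets. The other 149 (76.8%) lay within 1.5-fold.

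The Audic and Claverie test compares the tags of 2 libraries and takes no account of variation between larvae or preparations. In edgeR's exact test for negative binomial counts, run with a preset coefficient of variation of 0.2 between libraries, 17 of the 19 passed p under 0.01 and the exceptions were LOC550785 and LOC551282. With 0.4 assumed, none passed, with p from 0.0145 to 0.225. Of the 19, 11 reached 1000 tags in a single library (9 in the water library and 2 in the miR-184 library), so that they entered the group through the library in which they were high, and 8 reached 1000 in both, 4 lower and 4 higher.

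**Figure D3:**
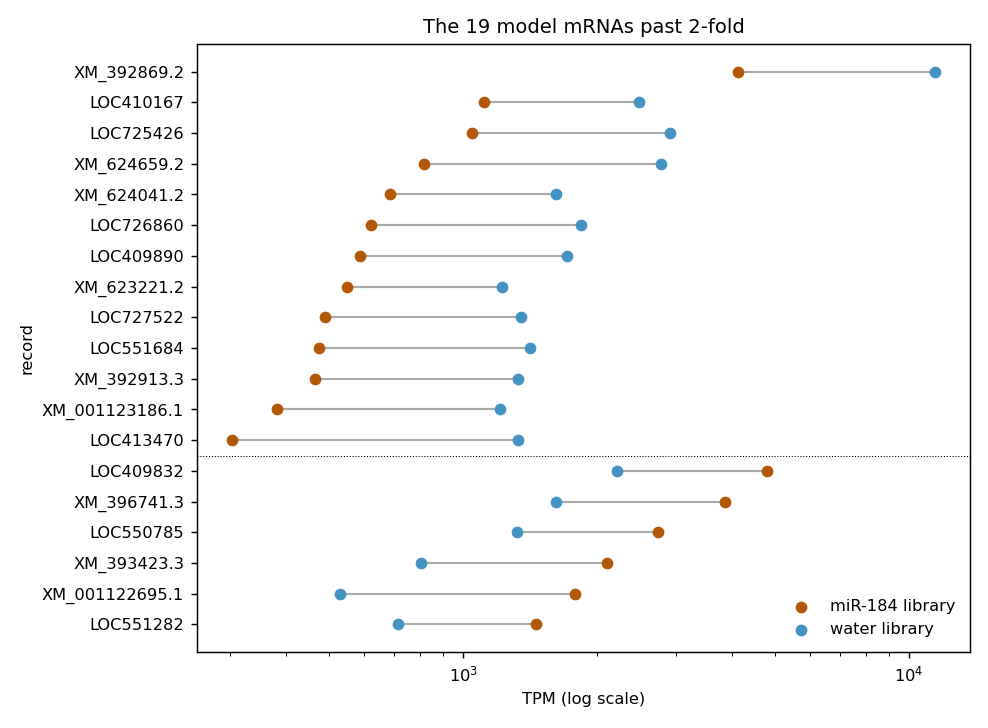
TPM (horizontal axis, log scale) of the 19 mRNAs that passed a ratio over 2 and p under 0.01, each on its own line, with a point for the miR-184 library and a point for the water library; the dotted line separates the 13 lower from the 6 higher. XM_392869.2 stands apart in level, at 4132 TPM in the miR-184 library and 11448 in the water library.

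The 13 lower mRNAs together took 1.17% of the miR-184 tags and 3.26% of the water tags. XM_392869.2 was by far the most abundant of them. It had 5591 tags or 4132 TPM in the miR-184 library and 15320 tags or 11448 TPM in the water library (log2 ratio -1.47, 95% counting interval -1.51 to -1.43, 2.77-fold lower). It held place 19 by mean count, and among the 20 most abundant model mRNAs it was the only one past 2-fold. Its shift of -7317 TPM was the largest of the 194.

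The largest reduction by ratio was that of LOC413470, with 410 tags in the miR-184 library and 1776 in the water library (log2 ratio -2.13, -2.29 to -1.98, 4.38-fold lower). It was the lowest of the 194 in the miR-184 library and was in place 121 in the water library, and it was the only record with a ratio over 4. XM_624659.2 had 1104 against 3714 tags (log2 ratio -1.77, -1.86 to -1.67, 3.40-fold lower), and XM_001123186.1 had 518 against 1622 tags (-1.66, -1.81 to -1.52). Of these 3, only XM_624659.2 stayed above 1000 tags in both libraries.

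A further 6 records were lower by a similar ratio. LOC551684 had 644 tags in the miR-184 library and 1885 in the water library, and LOC726860 had 841 and 2461 tags, and the log2 ratio of both was -1.57. LOC409890 had 796 against 2282 tags (log2 ratio -1.54) and XM_392913.3 had 628 against 1776 tags (-1.52). LOC725426 fell to 1415 tags in the miR-184 library, against 3897 in the water library (-1.48), and LOC727522 had 662 against 1803 tags (-1.46). The log2 ratios of these 6 ran from -1.57 to -1.46, while their levels in the water library ran from 1327 to 2912 TPM.

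The last of the lower records were nearer to 2-fold. XM_624041.2 had 927 tags in the miR-184 library and 2165 in the water library (log2 ratio -1.24), XM_623221.2 had 742 against 1635 tags (-1.16), and LOC410167 had 1505 against 3312 tags (-1.15). The smallest of the 13 reductions was 2.23-fold.

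The 6 higher mRNAs together took 1.67% of the miR-184 tags and 0.719% of the water tags. The largest increase was that of XM_001122695.1, with 2415 tags or 1785 TPM in the miR-184 library and 708 tags or 529 TPM in the water library (log2 ratio 1.75, 1.63 to 1.88, 3.37-fold higher). It was the lowest of the 194 in the water library and was in place 91 in the miR-184 library. XM_393423.3 had 2849 against 1076 tags (log2 ratio 1.39, 1.29 to 1.49, 2.62-fold higher), and XM_396741.3 had 5239 against 2159 tags (1.26, 1.19 to 1.34). These 3 records have no symbol in the RefSeq table.

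LOC409832 was the most abundant of the higher mRNAs, with 6493 tags or 4798 TPM in the miR-184 library and 2956 tags or 2209 TPM in the water library (log2 ratio 1.12, 1.06 to 1.18). LOC550785 had 3696 against 1764 tags (1.05, 0.97 to 1.13) and LOC551282 had 1971 against 958 tags (1.02, 0.91 to 1.14). The counting intervals of the last 2 reach below a log2 ratio of 1, so that whether they pass 2-fold is not fixed by these counts.

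Between 1.5-fold and 2-fold lay 16 lower and 10 higher mRNAs, several of them more abundant than any of those past 2-fold except XM_392869.2. LOC725432, in place 11 by mean count, had 17538 tags in the miR-184 library and 10014 in the water library (log2 ratio 0.79, 0.76 to 0.83). XM_001120243.1 had 5136 against 9918 tags (-0.97, -1.01 to -0.92), XM_393090.3 had 4637 against 8722 tags (-0.93) and XM_394187.3 had 6034 against 10076 tags (-0.76). LOC552517 had 6711 against 4160 tags (0.67), and LOC411202 had 1424 against 759 tags (0.89, 0.76 to 1.02). For XM_001120243.1, LOC411202 and LOC411789, the last with 938 against 1719 tags (-0.89, -1.01 to -0.77), the counting interval reached past 2-fold, and for the other records of the band it did not. These 7 were picked out after their values were seen, and the band as a whole ran from 1.52-fold to 1.95-fold.

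In tags, the 108 records above equal levels gained 65899 TPM and the 86 below changed by -71492 TPM. The net of -5593 TPM (miR-184 library minus water library) restates the group's shares of the tags given above, since TPM sets both libraries to the same total. The 10 records with the largest shift made up 31.7% of all shifts added without sign, and 6 of them lost tags and 4 gained. Of these 10, only XM_392869.2 was past 2-fold, beside 9.79% of the group. LOC725432 gained 5477 TPM and was 1.73-fold higher. XM_001120668.1 gained 4882 TPM, while the shift of XM_624038.2 was -5124 TPM and that of XM_001121890.1 -4369 TPM, each within 1.5-fold. XM_001120243.1, XM_393090.3 and XM_394187.3, also among the 10, were lower by between 1.5-fold and 2-fold. Large shifts in tags thus came with small and with larger ratios.

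**Figure D4:**
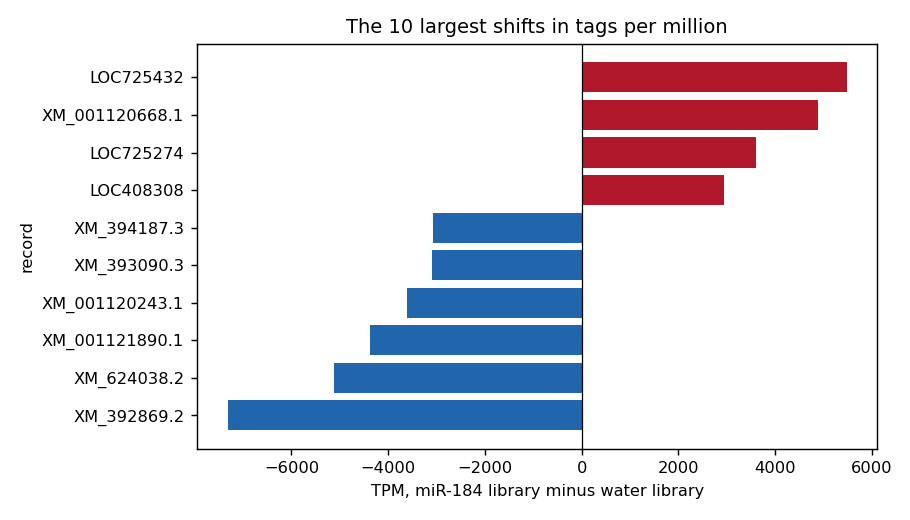
Difference in TPM (miR-184 library minus water library, horizontal axis) of the 10 abundant model mRNAs with the largest shift; bars to the right are higher and bars to the left lower in the miR-184 library. The bars run from -7317 TPM at XM_392869.2 to 5477 TPM at LOC725432.

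The calls were also counted by abundance. Of the 92 records with a mean from 1000 to 2000 tags, 9 were lower and 3 higher past the thresholds (13.0%), of the 64 from 2000 to 5000 tags 3 were lower and 3 higher (9.38%), and of the 38 with 5000 tags or more 1 was lower (2.63%). Of the calls in the lowest range, 11 reached 1000 tags only in the library in which they were high, so that the share in that range is set in part by the threshold and is not compared with the others. In these 3 ranges the log2 ratio had a robust SD of 0.50, 0.26 and 0.33, from the least to the most abundant, where the median counting standard error was 0.06, 0.04 and 0.02. In the mRNAs just below, with a mean from 500 to 1000 tags, 7 of 148 were lower and 3 higher (6.76%) with a robust SD of 0.54. The median log2 ratio was -0.04, 0.16 and 0.01 in the 3 ranges.

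**Figure D5:**
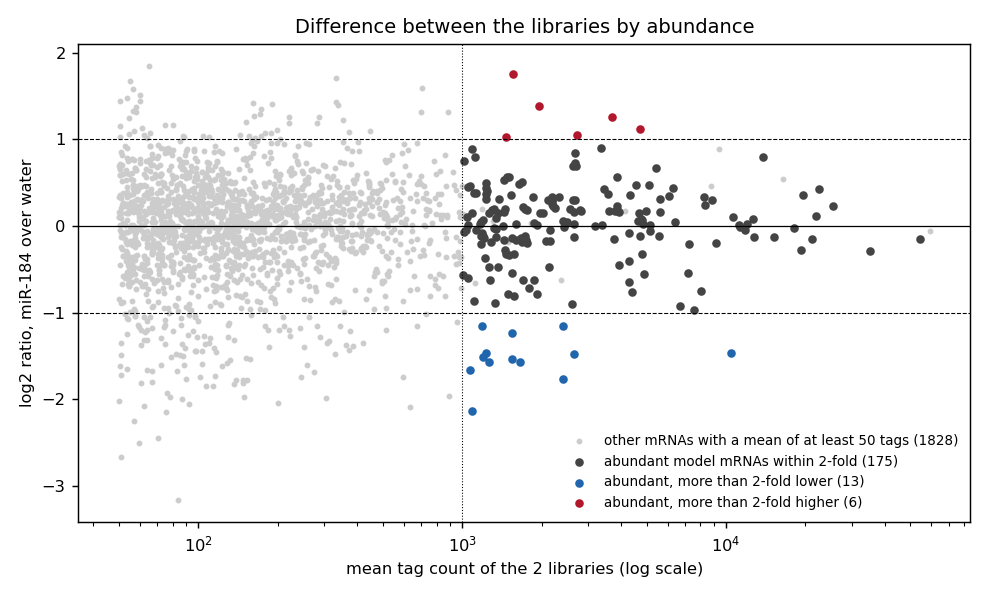
Log2 ratio of the miR-184 library over the water library (vertical axis) against the mean tag count of the 2 libraries (horizontal axis, log scale) for mRNAs averaging 50 tags or more, with the 194 in dark or coloured points and the other 1828 in grey; the dotted line marks 1000 tags and the dashed lines a 2-fold difference. Among the abundant model mRNAs, 13 lie below and 6 above the dashed lines, and of the 38 with 5000 tags or more only XM_392869.2 does.

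The records with a symbol and those without were also counted apart, with no test of a difference. Among the 109 with a LOC number the median log2 ratio was 0.09, and 7 were lower and 3 higher past the thresholds (9.17%). Among the 85 without a symbol it was 0.01, with 6 lower and 3 higher (10.6%). Both shares are near the 9.01% of all mRNAs. The 11 curated or non-coding records that also reached a mean of 1000 tags had a median log2 ratio of 0.14, from -0.66 to 0.89. None of them was past 2-fold, and 11 records are too few to compare with that share.

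For the 109 records with a symbol the order of genes in the RefSeq table could be used, without coordinates, because no source used here names the build of the study. No pair of them was adjacent among the protein-coding genes, and a single pair had fewer than 3 genes between its members. This pair is LOC409832, past 2-fold higher as given above, and LOC409911, with 3445 tags in the miR-184 library and 1900 in the water library (log2 ratio 0.84, 0.76 to 0.92). The gene between them, LOC413228, went the other way, with 17 tags in the miR-184 library and 57 in the water library (log2 ratio -1.76, -2.64 to -0.96). It is the only pair of its kind, and was chosen after its values were seen.

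At the threshold of 1000 tags the members just inside were XM_392350.3, with 1284 tags in the miR-184 library and 756 in the water library, LOC411206, with 1003 and 1037 tags, and LOC412675, with 819 and 1199 tags. Just outside were LOC551570 with 1159 and 831 tags, XM_001120139.1 with 1036 and 946 tags, and LOC552671 with 755 and 1227 tags. Of the 194, 171 reached 1000 tags in both libraries, 10 in the miR-184 library only and 13 in the water library only. Among the model mRNAs outside the group, without the hormone and muscle genes kept apart, 13 reached 1000 tags in the miR-184 library and 14 in the water library.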

How the data were processed

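The authors made Nla III tag libraries, aligned the reads to honey bee transcripts and genome, and added up the uniquely mapped reads per gene. The aligner and the build are not given in the sources used here. Although the labels call the deposited values TPM, they were taken as tag counts, because they are whole numbers whose totals differ and exceed 1000000. The smallest count above 0 was 2. Each ratio was divided by the ratio of the library totals, with 1 tag in place of a 0.

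An mRNA was called when its ratio passed 2 and the exact count test of Audic and Claverie, two-sided as 2 times the smaller tail, gave p under 0.01, after the thresholds of the study. This called 534 of the 5924 mRNAs, more than the study reports at these thresholds. The calls are therefore not the study's own list, and the reason for the difference was not tested. The quasi-likelihood test of edgeR needs replicates and could not be fitted. Intervals of a ratio were converted from the Clopper-Pearson interval of the miR-184 share of a record's tags. The software was R 4.3.3 with edgeR 4.0.16 and DESeq2 1.42.0, for scaling factors and the negative binomial exact test (edgeR, with a preset dispersion), and Python 3.11.15 with scipy 1.17.1, numpy 2.4.6 and pandas 2.3.3, for all else.

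The members were chosen with earlier results of these data known. The rule for named records took the 10 most abundant, the 6 largest and 6 smallest ratios, every member past 2-fold and the 3 on each side of 1000 tags. Groups by product name and sequence features had been planned and were not run, because the tables used here hold neither product names nor sequences, so that no rule on groups named a record. Other records that changed place in the 20 highest, lay near equal levels, fell between 1.5-fold and 2-fold or neighbour another record are outside this rule and were named after their values were seen.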

Additional observations from a re-analysis of the deposited data

How the results depend on the processing

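No paired analysis was possible because miR-184 and water have 1 library each, and leaving out a library was not possible either. The 19 mRNAs past 2-fold (13 lower, 6 higher) stayed at 19 under TMM scaling, DESeq2 size factors, median centring and library totals that omit the 10 most abundant mRNAs, at p under 0.001 and with Benjamini-Hochberg adjustment, and, chosen after seeing the data, with the water count conditioned on the miR-184 count. These scalings shift log2 ratios by at most 0.02. With a ratio over 1.5 the number was 45 (29 lower, 16 higher), and with a ratio over 4 it was 1 (1 lower, 0 higher). With an assumed coefficient of variation of 0.2 it was 17, and with 0.4 it was 0, in both directions. With a mean of at least 500 tags 28 of 333 mRNAs passed (20 lower, 8 higher), with at least 2000 tags 7 of 102 (4 lower, 3 higher), and with at least 1000 tags in both libraries 8 of 171 (4 lower, 4 higher). With a mean of at least 1000 TPM, chosen after seeing the data, 13 of 147 passed (7 lower, 6 higher). Requiring 1000 tags in both libraries drops, by construction, the 9 lower and 2 higher mRNAs that reached 1000 tags in a single library, and says nothing of the balance of directions. The share of tags was 68.1% (miR-184) and 68.7% (water) with at least 500 tags, 51.7% and 51.6% with at least 2000, 59.1% and 59.1% with 1000 tags in both libraries, and 57.0% and 57.1% with 1000 TPM. These shares move by construction. The median log2 ratio of the group lay between 0.01 and 0.08 under all 9 alternatives. The groups by product name and the promoter motifs were not run.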

Other observations

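The rows of the deposited table run mostly with the ratio between the libraries. The first 2740 rows start with the lowest ratios (miR-184 over water) and go up, with 94.0% of the steps in that order, and the rows after them start with the highest and go down, with 93.7% of the steps in order. In raw tags the turn lies between a ratio of 0.9825 and 0.9829 (miR-184 over water), while the totals of the 2 columns have a ratio of 1.011. When the libraries are scaled so that the turn lies at equal levels, the log2 ratio of every mRNA is 0.04 higher. With this scale, chosen after seeing the data, 19 of the 194 abundant model mRNAs were past 2-fold (13 lower, 6 higher), their median log2 ratio was 0.07, and 6 of the 194, all close to equal levels, changed the side of equal levels on which they lay.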
